A study of Mus musculus with 6 samples.

Results

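Chromosome 11 of the mouse, the chromosome that carries the tumor suppressor gene Trp53, was examined by array-CGH in laser captured forestomach tissue. Its members were the probes, controls left out, whose annotated position in the mm8 build of the mouse genome lies on chromosome 11. These were 2979 of the 42404 probes of the array, printed as 3007 of 43020 spots. The study asked whether loss of TGF-β signaling in the stroma is accompanied by genetic alterations in the neighboring epithelia. Test DNA came from the epithelia and, separately, the stroma of 3 Tgfbr2 fspKO mice, in which Cre driven by FSP1 deletes the floxed Tgfbr2 allele in FSP1+ fibroblasts, so that the epithelial cells keep the gene. The mice were of the C57Bl/6 strain, had squamous cell carcinoma of the forestomach, were 5 weeks old, and received no agent named in the labels. Reference DNA came from the epithelia of normal forestomach of Tgfbr2 flox/flox mice, which carry the floxed allele without its deletion, and whether it was pooled and the age of these mice are not given in the sources used here. Each of the 6 arrays set 1 test sample, labeled with Cy3, against the reference, labeled with Cy5, and no dyes were swapped. Both tissues of a mouse were captured by morphology, and the driver does not limit captured stroma to FSP1+ cells, so other stromal cells and infiltrating cells may be included.

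In array-CGH, test and reference DNA compete for the same probes, and the ratio of their signals reports the relative copy number at each probe. Trp53 encodes p53, which halts the cell cycle or starts cell death after DNA damage, and its loss is frequent in carcinomas. Ratios of small DNA samples can also drift in long waves that follow base composition and gene density, and mouse chromosome 11 is rich in genes.

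Every value below is the log2 ratio of test over reference signal, centered on the median of the array, so that 0 is the typical probe and positive values are higher in the test DNA. The chromosome 11 probes span positions 3100146 to 121652625, with a median distance of 16960 bases between neighboring starts against 22330 on the other chromosomes. The largest gap without a probe, 3804343 bases, runs from 12377913 to 16182256. The chromosome is thus more densely covered than the rest of the genome.

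The arrays differed in quality. The derivative log ratio SD, which measures the noise between neighboring probes, was, in the order of the 3 mice, 0.469, 0.835 and 0.395 on the epithelial arrays and 0.488, 0.396 and 0.419 on the stromal arrays. All 6 arrays lay outside the range that the scanner software accepts, and the epithelia of mouse 2 were the noisiest. At chromosome 11 spots the test channel was well above background in 91.2%, 87.1% and 97.9% for the epithelia and 96.6%, 86.4% and 93.3% for the stroma. The reference channel was so in 77.7%, 74.2% and 96.6% and in 73.2%, 78.6% and 93.6%. Fewer reference spots were thus clear of background on the 4 arrays of mice 1 and 2, which share slide 1, than on the 2 arrays of mouse 3 on slide 2. Of the chromosome 11 probes, 1995 (67.0%) cleared background in test and reference on every array, against 71.2% of all probes. No chromosome 11 spot was saturated. Where the same probe was printed as 3 spots (14 probes), the median SD between its spots was between 0.065 in the stroma of mouse 3 and 0.16 in the epithelia of mouse 1.

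Over the whole chromosome the epithelial arrays of mice 1 to 3 had mean log2 ratios of 0.0025, 0.18 and 0.028. Their stromal arrays had -0.025, -0.064 and 0.027. Only the epithelia of mouse 2 stood away from 0 by more than 0.1, and there chromosome 11 ranked 2 from the highest of 20 chromosomes. The epithelial mean was 0.069 ± 0.094 and the stromal mean -0.021 ± 0.046 (SD, n = 3 each), both smaller than their SD. Epithelia minus stroma gave 0.027, 0.24 and 0.00077 in the 3 mice, with a mean of 0.089 ± 0.13 (SD, n = 3). The difference therefore rests on mouse 2, and without this mouse it was 0.014. Within slide 1 it was 0.13 (2 mice) and within slide 2, which holds mouse 3, it was 0.00077. No whole gain or loss of chromosome 11 was seen on the other 5 arrays, where the mean lay between -0.064 and 0.028. In the epithelia of mouse 2 the level was uneven, with 0.41 over the distal 971 probes and 0.063 over the 2008 before them. Among the 20 chromosomes its mean ranked 20 from the highest in the stroma, 6 in the epithelia and 4 for the difference. The rank in the stroma rests on mice 1 and 2 (rank 20 on both arrays), as mouse 3 had rank 6, and chromosome 4, the next lowest, had nearly the same stromal mean (-0.020).

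In steps of 20 Mb from the start of the chromosome to 120 Mb, the epithelia of mouse 2 had means of 0.088, -0.058, 0.010, 0.17, 0.18 and 0.37, and 0.49 over the last 94 probes. The level of this array was thus highest at the distal end. The epithelia of mouse 1 had 0.053, 0.13, -0.0095, -0.0091, -0.00095 and -0.020, and -0.16 over the last 94 probes, the opposite sign at the end. The epithelia of mouse 3 had 0.025, 0.084, 0.031, 0.014, 0.016 and 0.042, and -0.054 at the end. In no block of 20 Mb did the 3 epithelial arrays share a shift beyond 0.1. The stroma of mouse 1 lay between -0.064 and 0.048 in all 7 blocks, and that of mouse 2 between -0.12 and 0.045. The stroma of mouse 3 lay between -0.029 and 0.038 up to 100 Mb and had 0.091 and 0.14 in the last 2 blocks. The distal blocks were above 0 both in the epithelia of mouse 2 and in the stromal sample of mouse 3, which are different animals on different slides.

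Waves were described on 55 windows of 2 Mb with at least 10 probes (11 to 130 probes, median 51, against a median of 32 elsewhere). Only 17 chromosome 11 probes fell outside them. The SD over these windows was 0.11, 0.28 and 0.079 for the epithelial arrays of mice 1 to 3, while the stromal ones had 0.12, 0.098 and 0.10. The waves were therefore deepest in the epithelia of mouse 2. On that array 15 windows were above 0.25 and 6 below -0.25, which is 38.2% of them against 43.1% on the other chromosomes. On each of the other 5 arrays at most 1 window was above 0.25 and at most 1 below -0.25. On the other chromosomes 18.3% and 9.73% of windows were beyond 0.25 either way on the epithelial arrays of mice 1 and 3, and 16.6%, 3.48% and 3.48% on the stromal arrays. The window SD of chromosome 11 ranked 20, 8 and 19 from the highest of 20 chromosomes in the epithelia and 20, 17 and 13 in the stroma. It was thus below the median chromosome on 5 arrays, and in the epithelia of mouse 2 it was 0.28, the same as the median chromosome to 2 decimals. The windows of chromosome 11 hold more probes, so noise alone gives them a smaller SD. Divided by the SD that noise between neighboring probes would give, the window SD was 1.44, 2.01 and 1.19 in the epithelia. The other chromosomes had 2.05, 1.93 and 2.05. In the stroma it was 1.42, 1.48 and 1.46, against 1.92, 1.53 and 1.44 on the other chromosomes.

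The waves of the epithelia of mouse 2 followed probe density. Across the 55 windows its log2 ratio had a Pearson correlation of 0.66 with the number of probes in the window, against -0.27 and 0.055 for the epithelial arrays of mice 1 and 3 and, for the stromal arrays in turn, -0.26, -0.49 and 0.45. Windows of 1 array share its hybridization and neighboring windows resemble each other (correlation of neighbors 0.50 in the epithelia of mouse 2), so these are descriptions without a test. The 27 windows with more probes than the median had a mean of 0.24 in the epithelia of mouse 2, and the other 28 had -0.072. This contrast of dense minus sparse windows was -0.061, 0.32 and -8.5e-05 in the epithelia and -0.054, -0.080 and 0.094 in the stroma. It had the same sign on this array outside chromosome 11, where it was 0.28. Dense windows thus lay higher both in the epithelia of mouse 2 and in the stromal sample of mouse 3, and lower on both arrays of mouse 1 and on the stromal array of mouse 2.

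The signals of both channels also differed between dense and sparse windows. In the epithelia of mouse 2 the mean log2 reference signal was 9.49 in dense and 9.96 in sparse windows, and it was lower in dense windows by a similar amount on the other arrays (9.56 and 10.04, 9.73 and 10.25, 9.67 and 10.14, 9.52 and 9.98, 9.62 and 10.13, in the order epithelia of mice 1 and 3, then stroma of mice 1 to 3). The test signal in the epithelia of mouse 2 was 9.72 and 9.87, a narrower gap than on the other arrays (9.53 and 10.08, 9.76 and 10.28, 9.62 and 10.14, 9.45 and 10, 9.67 and 10.08, in the same order). This array thus stood apart in its test signal and not in its reference signal. The correlation of the log2 reference signal with the log2 ratio across windows was -0.75 there, and in the other arrays it was 0.37, -0.16, 0.37, 0.50 and -0.60 (epithelia of mice 1 and 3, then stroma of mice 1, 2 and 3). The reference signal is also the denominator of the ratio, so the points share it. What drives the waves was not tested.

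Segmentation of each array, which divides the chromosome into pieces of equal level and calls a stretch where at least 3 probes have a mean beyond 0.25 either way, gave 2 stretches on chromosome 11. There were 0, 1 and 0 on the epithelial arrays of mice 1 to 3 and 0, 1 and 0 on the stromal ones. Over all chromosomes the same arrays had 6, 23, 7, 17, 4 and 3 stretches. No stretch of chromosome 11 was called on more than 1 array, so none was shared within a tissue or within a mouse.

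The stretch in the epithelia of mouse 2 was a higher level from 95981478 to 121652625, the distal 25.7 Mb of the probed chromosome. It held 971 probes (32.6% of those on chromosome 11, where 25.0% of all probes of this array lay in called stretches) with a mean of 0.41, against 0.063 over the 2008 probes before it, and 65.9% of its probes were above 0 against 52.5% of the rest. Over the same 971 probes the epithelia of mice 1 and 3 had -0.033 and 0.029, and the stroma of mice 1, 2 and 3 had -0.078, -0.12 and 0.068. The higher level was thus carried by a single array, and the stroma of the same animal was below 0 there. The region is dense, with 37.8 probes per Mb against 21.6 in the rest, and 67.9% of its probes had a reference signal clear of background on this array against 77.5% elsewhere on the chromosome.

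Inside this stretch the level was not even. Its highest windows lay at 96 to 98 Mb (0.66), 116 to 118 Mb (0.65) and 118 to 120 Mb (0.65). The window at 106 to 108 Mb had -0.023 and that at 110 to 112 Mb had -0.37. The 11 dense windows inside it had a mean of 0.40 in the epithelia of mouse 2, the 16 dense windows outside it had 0.14, and the 26 sparse windows outside it had -0.079. The 2 sparse windows inside had a mean of 0.020. Since the ends of the stretch were set by the high level of this array, a higher mean inside than outside is given by the way it was chosen. How far the higher level and the density of probes can be told apart was not tested.

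In the stroma of mouse 3 the segmentation placed a boundary in the same arm, and the 268 probes from 115601600 to 121652625 had a mean of 0.24, just under the limit of 0.25. The epithelia of mouse 2 had 0.60 there. The other arrays had -0.052 and 0.10 (epithelia of mice 1 and 3) and -0.063 and -0.088 (stroma of mice 1 and 2). The 2 arrays with the highest distal level were also the 2 whose dense windows lay above their sparse ones. These 2 descriptions overlap, since 11 of the 27 dense windows but only 2 of the 28 sparse ones lie beyond 95981478. A link between them was not tested.

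The stretch in the stroma of mouse 2 was a lower level of 37 probes from 99205526 to 99918209, with a mean of -0.32. The call depended on the settings, and was lost with normexp, with bright probes only, with a doubled penalty and with a limit of 0.4. On this array 64.9% of its probes had a reference signal clear of background, against 78.9% elsewhere on the chromosome. Over these 37 probes the stroma of mice 1 and 3 had -0.29 and -0.15, and the epithelia of mice 1, 2 and 3 had 0.13, 0.34 and 0.31. All 3 stromal arrays were below 0 and all 3 epithelial arrays above it, although the stretch was called on 1 array only. The share of its probes above 0 was 67.6%, 59.5% and 75.7% in the epithelia and 21.6%, 18.9% and 24.3% in the stroma. Epithelia minus stroma was 0.42, 0.66 and 0.46 in the 3 mice, with a mean of 0.51 ± 0.13 (SD, n = 3). With normexp and with bright probes only, where the call was lost, it was 0.40 and 0.43 over the same positions. Since the ends of the stretch were set by the stroma of mouse 2, this difference is a description and was not tested. The 37 probes also lie inside the longer stretch called in the epithelia of mouse 2, over which that array had a mean of 0.41.

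Short pieces of 1 or 2 probes were split off in the stroma of mouse 2 only, and are described here because of their values. A probe at 99201413, next to the lower stretch, had 3.69 on this array, and between -0.39 and 1.03 on the other 5, with test and reference signals clear of background everywhere. A probe at 99933432, on the other side of the stretch, had 3.49, and its ratio was above 0 on every array (1.74, 2.30 and 1.71 in the epithelia, 0.26 and 1.16 in the stroma of mice 1 and 3). Its reference channel was not well above background on any array. Probes at 94767797 and 94769082 had 2.14 and 2.11 in the stroma of mouse 2. The first of them had no reference signal clear of background on any array, and 1.78 in the epithelia of mouse 2, so its ratio is not exact. High single probes were most frequent in the epithelia of mouse 2, where 78 chromosome 11 probes were above 2 (2.62%, with 2.18% of all probes) and 20 below -2 (with 523 of all probes). The other arrays had 6, 0, 5, 10 and 1 above 2 (epithelia of mice 1 and 3, then stroma of mice 1, 2 and 3). As shares these were 0.201%, 0%, 0.168%, 0.336% and 0.0336%, with 0.0994%, 0.0071%, 0.208%, 0.142% and 0.0331% of all probes. Among these arrays only the epithelia of mouse 1 had a chromosome 11 probe below -2, with 36, 14, 13, 16 and 5 of all probes in the same order.

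Epithelia were then compared with the reference probe by probe, to ask which positions were higher or lower in all 3 mice. In limma with Benjamini-Hochberg adjustment, 0 of 2979 chromosome 11 probes were past an adjusted p of 0.05, against 0.0236% of all probes (10 of 42404). At an unadjusted p under 0.05 there were 302 (217 higher and 85 lower), against 4525 of 42404 over the genome. Above 0 in all 3 epithelia were 485 of the 2965 probes measured on every array (16.4%, with 13.8% over all chromosomes), and below 0 were 325 (with 12.5%). Of all chromosome 11 probes 49.1%, 56.9% and 51.8% were above 0 in the epithelia of mice 1, 2 and 3, so a lean to the higher side was carried mainly by the noisiest array. The lowest adjusted p was 0.310, at the probe A_53_P115688 (5091750 to 5091809), which had 0.93, 1.63 and 1.33 in the epithelia and 0.35, 0.77 and 1.39 in the stroma. It was above 0 on all 6 arrays, but its reference channel was well above background on only 1 of the 3 epithelial arrays and on none of the stromal ones. Its epithelial mean was 1.30, and 0.73 with normexp. The other probes with the lowest p and a single sign, at 3932247 and at 99706214, had means of 1.33 ± 0.70 and 1.63 ± 1.04 (SD, n = 3) and did not pass either, with adjusted p of 0.346 and 0.350 (limma). Their reference signals were clear of background on only 2 and 1 of the 3 epithelial arrays, so these ratios are not exact.

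For the epithelia 0 of the 55 windows passed 0.05 after adjustment in limma, against 0.659% of 1062 windows over all chromosomes, and 2 (3.64%) were at an unadjusted p under 0.05, with 15.5% of all windows. The lowest p was at 20 to 22 Mb (41 probes), with 0.18, 0.24 and 0.12 in the epithelia and 0.15, 0.15 and 0.046 in the stroma. It was above 0 on all 6 arrays and did not pass in the epithelia (0.18 ± 0.063, SD, n = 3; adjusted p of 0.213 in limma). The highest means were 0.32 ± 0.29 at 116 to 118 Mb, 0.20 ± 0.40 at 118 to 120 Mb and 0.20 ± 0.40 at 96 to 98 Mb (SD, n = 3). The lowest were -0.14 ± 0.41 at 92 to 94 Mb, -0.13 ± 0.25 at 110 to 112 Mb and -0.10 ± 0.13 at 56 to 58 Mb. In 5 of these 6 windows the SD was larger than the mean. At 116 to 118 Mb the 3 epithelia had 0.094, 0.65 and 0.22, all above 0, with an adjusted p of 0.257 (limma). Without mouse 2 the means at 118 to 120 Mb and at 96 to 98 Mb turned to -0.022 and -0.034, and that at 92 to 94 Mb to 0.095.

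In the stroma, 0 chromosome 11 probes were past an adjusted p of 0.05 (limma), against 0.00472% of all probes (2 of 42404). At an unadjusted p under 0.05 there were 322 (135 higher and 187 lower), 10.8% against 11.5% of all probes. Above 0 in all 3 stromal arrays were 610 probes (20.6%, with 23.8% over all chromosomes), and below 0 were 778 (26.2%, with 24.6%). Of all chromosome 11 probes 44.8%, 44.7% and 51.3% were above 0 in the stroma of mice 1, 2 and 3. The slight lean of the stroma to the lower side thus came from mice 1 and 2. When mouse 2 was left out, 212 were higher and 194 lower at an unadjusted p under 0.05 in limma (13.6%, with 15.1% of all probes). The lowest adjusted p was 0.189, at the probe A_53_P125886 (4995193 to 4995252), which had -1.58, -1.23 and -1.56 in the stroma and 0.75, 0.56 and 0.38 in the epithelia. Test and reference signals of this probe were clear of background on each of the 6 arrays. Its neighbors, at 4991361 and 4999733, had -0.15 and 0.030 as stromal means and did not share the low ratio. The next probes, at 102087884 and 54710682, had -1.03, -1.05 and -0.91 and -1.56, -0.80 and -1.21 in the stroma, each with an adjusted p of 0.333 (limma), and did not pass.

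When the spread was taken from the 3 stromal arrays alone, 88 chromosome 11 probes were past the threshold in limma (27 higher and 61 lower). Over all probes 1374 were (3.24%), so the share on chromosome 11 was close to that elsewhere. The windows gave 0 of 55 in the stroma in the fit of all 6 arrays (limma), against 0.0942% of all windows, with 2 (3.64%) at an unadjusted p under 0.05 against 6.12% of all windows. With the stromal arrays alone 1 of 55 was past it, against 9.23% of all windows. This window, at 110 to 112 Mb with 14 probes, had -0.22, -0.23 and -0.25 in the stroma and 0.12, -0.37 and -0.16 in the epithelia. The other low windows of the stroma were at 98 to 100 Mb (-0.18 ± 0.096) and 56 to 58 Mb (-0.15 ± 0.037), and the highest at 24 to 26 Mb (0.15 ± 0.067), 40 to 42 Mb (0.14 ± 0.18) and 74 to 76 Mb (0.13 ± 0.057; SD, n = 3). These 6 windows were small shifts, none beyond 0.25, although that at 110 to 112 Mb was -0.26 with normexp.

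Epithelia and stroma of the same mouse were compared with the animal as a block. In limma 0 chromosome 11 probes were past an adjusted p of 0.05, against 0.0189% of all probes (8 of 42404). At an unadjusted p under 0.05 there were 180 (146 higher in the epithelia and 34 lower), 6.04% against 7.29% of all probes. The excess of higher probes was much smaller without mouse 2, with 105 higher and 81 lower (6.24%, with 7.08% of all probes). For none of the 3 comparisons was the split of all probes into higher and lower counted at this unadjusted p. Whether such a lean is particular to chromosome 11 cannot be read from these counts. The difference was above 0 in all 3 mice at 502 probes (16.9%, with 15.8% over all chromosomes) and below 0 at 285 (9.61%, with 14.7%). These shares were not tested against those of all chromosomes, and mouse 2 had the largest share in the mean difference of the chromosome. The probe A_53_P125886 had the lowest adjusted p, 0.373, with differences of 2.33, 1.79 and 1.94 in the 3 mice and a mean of 2.02 ± 0.28 (SD, n = 3). It missed the threshold in this fit, and when dim probes were left out, so that fewer were tested, its adjusted p was 0.0495 (limma).

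The probe at 99706214 is 1 of the 37 probes described above and lies in the window at 98 to 100 Mb, so it contributes to both. It had 1.35, 2.78 and 0.75 in the epithelia, over a dim reference on all but 1 of these arrays. Its test channel was not well above background on any stromal array, so its stromal signal is not exact. As means over the 3 mice, the test signal of the epithelia was 3.17-fold that of the stroma, with low stromal signals raised to a floor. This floor was the lowest signal called well above background on the array. An undetected probe can lie above it, so the fold is approximate and no strict bound. The fold holds for the green channel after loess within arrays and quantile normalization of the mean of both channels. It is open to dye bias, and is no floor for each mouse or for the ratios. The difference of the ratios was 2.29, 2.90 and 0.64 in the 3 mice, with an adjusted p of 0.679 (limma). A probe at 32811342 had 0.64, 3.01 and -0.13 in the epithelia and -0.95, -1.44 and -1.16 in the stroma, with the same adjusted p of 0.679 (limma). Its reference signal was clear of background on only 2 of the 3 epithelial arrays, so its epithelial ratios are not exact. The stromal values of this probe were alike, and the size of its difference came mainly from mouse 2. Its mean difference was 2.36, and 1.54 with normexp.

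Among windows, 0 of 55 were past an adjusted p of 0.05 for epithelia minus stroma (limma), as were 0% of all 1062 windows, and 1 (1.82%) was at an unadjusted p under 0.05, with 10.2% of all windows. That window, at 98 to 100 Mb with 108 probes, holds the 37 probes described above. Its values were 0.013, 0.36 and 0.072 in the epithelia and -0.27, -0.18 and -0.077 in the stroma, so that the tissues lay on opposite sides of 0, with a mean difference of 0.33 ± 0.20 (SD, n = 3; adjusted p of 0.402 in limma). The other high windows were at 116 to 118 Mb (0.30 ± 0.44) and 96 to 98 Mb (0.28 ± 0.48), and the low ones at 92 to 94 Mb (-0.22 ± 0.37), 24 to 26 Mb (-0.16 ± 0.16) and 10 to 12 Mb (-0.13 ± 0.28). Their differences were no larger than the SD between mice. Without mouse 2 those at 116 to 118 Mb, 96 to 98 Mb and 92 to 94 Mb were 0.061, 0.0077 and -0.0096, and that at 10 to 12 Mb turned to 0.029, so mouse 2 carried them.

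Opposite signs in the tissues were also counted. Epithelia above 0 on all 3 arrays together with stroma below 0 on all 3 was found at 71 chromosome 11 probes (2.39%), with 2.01% over all chromosomes, and the reverse at 23 probes (0.776%), with 1.09%. Among the windows 2 of 55 (3.64%) had the epithelia above and the stroma below 0, with 1.88% over all chromosomes, and 0 had the reverse, with 2.35%. The 2 windows were those at 98 to 100 Mb and at 88 to 90 Mb, and in the latter the epithelia had 0.10, 0.032 and 0.00019. With so few windows and no test, no difference from the whole genome can be read from these shares.

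The position of Trp53 in the mm8 build is not given by the files, and no probe was assigned to a gene. In a RefSeq table of another build (GRCm38.p6), used for names only, Trp53 is on chromosome 11 between Wrap53 and Atp1b2, and 1609 protein-coding genes are listed there, the third highest number of 20 chromosomes. All 39 genes of the lists considered are on this chromosome in that table. Among them are the tumor suppressors Nf1 and Brca1, the growth factor receptors Egfr and Erbb2, the inflammatory mediators Nos2 and Ccl2, and the keratins Krt10 and Krt14. Their copy number was not analysed here.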

How the data were processed

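Each array came with linear intensity columns from the authors' Feature Extraction run (version 10.7.1.1), both raw medians and processed signals, the latter corrected for background and spatial trend and scaled linearly between dyes. The deposited log10 values of the authors give the ratio of reference over test signal, and the series table equaled them (largest difference 0). Spots marked as outliers were left out (0 to 10 of the chromosome 11 spots per array), spots of 1 probe were averaged, and no loess was applied to the log2 ratios. The fold given for a test signal was computed apart from them, with loess and quantile normalization as stated there. The log2 ratios of all 42404 probes and of 1062 windows of 2 Mb were tested in limma 3.58.1 (R 4.3.3), with all 6 arrays in 1 fit, Benjamini-Hochberg adjustment over all of them and a threshold of 0.05. Tissue means had no block, and the difference between tissues had the mouse as a block. Tissues were paired by the animal given in the labels. After removal of the mean of each tissue, the tissues of a mouse correlated with 0.077, -0.023 and 0.10 in mice 1, 2 and 3. No mean over the chromosome was tested.

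Segmentation by penalized least squares was written in Python 3.11.15 (numba 0.67.0, pandas 2.3.3, numpy 2.4.6). Each break cost 4 times the natural logarithm of the number of probes times the noise variance. Both methods were tested on simulated data, and the outcome is neither given nor used here. Named were the 3 probes of each comparison with the lowest p and a single sign in all 3 mice when fewer than 3 passed, the 3 highest and 3 lowest windows, and every called stretch. Members and lists were chosen with earlier results of these data known. Alternatives were normexp (offset 50), the series table, loess, a filter on signal, other centering, blocks and window sizes, and each mouse left out. Correlations between arrays over all probes ran from -0.095 (epithelia of mice 1 and 2) to 0.588 (both tissues of mouse 3, on 1 slide). Pairs of epithelia had at most 0.199. All arrays had reference DNA of the same kind. The number of arrays limits the precision. The p-values cover the spread between 3 animals, and not that of the reference if it was common to all arrays. The results of CGH Analytics and the cultured tumor cells were not used here.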

Additional observations from a re-analysis of the deposited data

Results flagged for a closer look

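The probe at 4995193 on chromosome 11 (A_53_P125886) was above 0 in all 3 epithelia and below 0 in all 3 stromal samples, with a difference of 2.02 on the log2 scale. The difference was tested and missed the threshold, with an adjusted p of 0.373 (limma). Under other settings that adjusted p was between 0.0435 and 0.511 (limma). The lowest came from the fit without mouse 2, which had only 1 residual degree of freedom.

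The window from 98 to 100 Mb had the tissues on opposite sides of 0 in the same way, with a difference of 0.33 and an adjusted p of 0.402 (limma).

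The 37 probes from 99205526 to 99918209, inside that window, were above 0 in all 3 epithelia and below 0 in all 3 stromal samples, with a difference of 0.51. Their ends were set by the stroma of mouse 2, and the difference was not tested. The stretch was not called with normexp, with bright probes only, with a doubled penalty or with a limit of 0.4, although the difference over its positions was 0.40 with normexp and 0.43 with bright probes only. In all, 64.9% of its probes had a reference signal clear of background in the stroma of mouse 2, against 78.9% elsewhere on the chromosome.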

How the results depend on the processing

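Under other settings the mean of chromosome 11 was 0.053 to 0.074 in the epithelia, -0.041 to -0.015 in the stroma and 0.076 to 0.096 for the difference. Without 1 mouse it was 0.015 to 0.10, -0.044 to 0.0011 and 0.014 to 0.13, with a change of sign in the stroma. Dim reference signal limits the ratios, and 67.0% of probes were bright throughout.

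In the epithelia 0 to 0 probes and 0 to 0 windows passed without 1 mouse (limma). The stroma had 0 to 0 of each. Of all 42404 probes 8, 12 and 0, and in the stroma 2, 12 and 0, passed without mice 1, 2 and 3. Of all 1062 windows 101 and 36 passed without mouse 2. With normexp 1 probe, of 9 in all, passed in the stroma (A_53_P125886, -1.41, adjusted p 0.0368), and with the stromal arrays alone 88 probes and 1 window (110 to 112 Mb, -0.23, adjusted p 0.0107) did. For epithelia minus stroma 0 to 3 probes and 0 to 0 windows passed without 1 mouse, beside 66, 16 and 6 of all probes and 3, 83 and 23 of all windows without mice 1, 2 and 3. Without mouse 1 these were the probes at 32811342 (2.74), 98589321 (3.24) and 117782351 (2.51), the last 2 with 5.20 and 4.23 in the epithelia of mouse 2. All 3 had the same standard error (0.55), so their p ignores the spread of each probe and is not given. These windows had the same limit. Without mouse 2 it was A_53_P125886 (2.14, adjusted p 0.0435 in limma), in a fit of 2 mice with only 1 residual degree of freedom. This probe was also the 1 that passed among bright probes (2.02, adjusted p 0.0495 in limma, with 5 of 30176 in all). The cause was not tested.

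Without the replicate block of paired tissues 0 chromosome 11 probes passed (7 in all; lowest adjusted p 0.217, limma). With slide as a block 0 did (0 in all).

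Ranges without 1 mouse were 1.13 to 1.48 at 5091750, 0.99 to 1.70 at 3932247 and 1.05 to 2.07 at 99706214 in the epithelia. In the stroma: -1.57 to -1.40 at 4995193, -1.04 to -0.97 at 102087884 and -1.39 to -1.01 at 54710682. For the difference: 1.87 to 2.14 at 4995193, 1.47 to 2.60 at 99706214 (stroma at background, not exact) and 1.31 to 3.02 at 32811342. With normexp the epithelial means were 0.73 at 5091750 and 1.01 at 99706214, and the differences 0.91 at 99706214 and 1.54 at 32811342. With stromal arrays alone the stromal ones passed, at -1.46, -1.0 and -1.19 (adjusted p 0.0209, 0.0339 and 0.0335).

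Without mouse 2, 4 windows reversed: 92 to 94 Mb to 0.095 (-0.26 to 0.095), 118 to 120 Mb to -0.022 (-0.022 to 0.36) and 96 to 98 Mb to -0.034 (-0.034 to 0.32) in the epithelia, and 10 to 12 Mb to 0.029 (-0.24 to 0.029) for the difference. Epithelial ranges at 116, 110 and 56 Mb were 0.16 to 0.44, -0.26 to -0.018 and -0.16 to -0.032. Stromal ranges at 110, 98, 56, 24, 40 and 74 Mb were -0.24 to -0.23, -0.23 to -0.13, -0.17 to -0.14, 0.12 to 0.18, 0.041 to 0.20 and 0.094 to 0.14. Those of the difference at 98, 116, 96, 92 and 24 Mb were 0.21 to 0.41, 0.061 to 0.49, 0.0077 to 0.44, -0.36 to -0.0096 and -0.25 to -0.091.

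Halving the penalty gave 4 higher stretches in the epithelia of mouse 2, 2 in those of mouse 3 and 1 in each stroma. The stroma of mouse 1 also had 1 higher stretch with normexp, with loess and with bright probes only, and that of mouse 2 had 1 with normexp. The lower stretch was not called (0) with normexp, with bright probes only, with a doubled penalty or with a mean beyond 0.4, and there were 2 with a mean beyond 0.15, where the stroma of mouse 3 had 1 higher stretch. Chosen after the data were seen, the tissue difference without 1 mouse was 0.44 to 0.56 over the 37 probes and 0.0030 to 0.29 over the 971 probes.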
